A study of Mus musculus with 13 samples.

Results

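Carbonic anhydrases are zinc enzymes that interconvert carbon dioxide and water with bicarbonate and protons, and in the brain they bear on pH, on ion and fluid transport and on the secretion of cerebrospinal fluid. The mouse family holds cytosolic enzymes (Car2, Car3, Car7), a mitochondrial enzyme (Car5b), enzymes on the outer face of the plasma membrane (Car4, Car9, Car12) and related proteins that have lost catalytic activity (Car8, Car10, Car11). In brain, Car2 is known from oligodendrocytes and choroid plexus, Car4 from capillary endothelium and Car7 from neurons, and Car9 is a textbook target of the hypoxia-inducible factors. The members described here were these 10 genes, chosen by name out of the 48795 genes in the count table, and each of the 10 had a count above 0 in every library.

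RNA was sequenced from 13 right brain hemispheres of mice at postnatal day 11, without olfactory bulb and cerebellum, 1 library a mouse, all on a C57BL/6J background. The 5 control mice were NexCre -/- YAP5SAnls +/-, so they carried the silent transgene but no Cre. The 5 nlsYAP5SA mice were NexCre +/- YAP5SAnls +/-, in which Cre, inserted in the Neurod6 gene, switches on a nuclear, phosphorylation-resistant YAP1 in the lineage of cortical and hippocampal pyramidal neurons, and a further 3 mice were C57BL/6 animals without either allele. The nlsYAP5SA mice thus differed from controls in a Neurod6 allele as well as in active YAP1, controls and nlsYAP5SA mice were littermates from a pair of matings, and the labels tie no mouse to a litter.

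Libraries held 20871566 to 25524349 estimated counts. Yap1 was at 20.0 to 22.3 CPM (counts scaled to library size by TMM) in controls and at 22.6 to 26.6 CPM in nlsYAP5SA, and Neurod6 was at 91.5 to 110 CPM in controls and at 38.9 to 56.8 CPM in nlsYAP5SA. All 8 YAP1/TAZ target genes listed were higher in nlsYAP5SA, beside 7.36% of all genes, with log2 fold changes of 6.09 for Ccn5, 1.56 for Amotl2, 1.43 for Ccn2 (Ctgf) and 2.48 for Ccn1 (Cyr61). Ccn5 was near the floor in controls, at 0 to 0.417 CPM. The list was chosen with earlier results of these data known, and the paper reports Amotl2, Ctgf, Cyr61, Ankrd1 and Axl as raised in these mice. It serves only as a check of the labels. Features of the mice that cut across the groups touch the results below. The summed level of 4 Y-linked genes was 91.0 to 143 CPM in 9 mice and at most 0.0942 CPM in the other 4, and it was high in all 5 controls, in 2 of 5 nlsYAP5SA mice (replicates 3 and 4) and in 2 of 3 C57BL/6 mice (replicates 1 and 3). Such counts mark male mice, so sex and genotype overlapped in part. Ttr, the choroid plexus transcript for transthyretin, was at 0.783 to 2.14 CPM in 5 mice and at 55.2 to 276 CPM in 8, with mice of every group on both sides of the gap. In bulk tissue, fewer cells of a type and less RNA per cell cannot be told apart.

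Of the 10 carbonic anhydrase genes, 4 differed between nlsYAP5SA and control hemispheres at an adjusted p of at most 0.05 in edgeR's quasi-likelihood test. Car9 rose 13.6-fold (95% interval 9.65 to 19.1) and Car5b rose 1.41-fold (1.17 to 1.70), while Car2 fell to 0.834 of its control level (0.750 to 0.926) and Car4 to 0.838 (0.758 to 0.927). Over all genes tested in this comparison 10.8% were called, 7.36% higher and 3.44% lower, against 2 members higher and 2 lower. The Car9 call alone held under every alternative that could be fitted, 21 of 21. Car2 was called in 11, Car4 in 12 and Car5b in 15 of 22 alternatives, and these 3 calls were lost both with the Y-linked level as a covariate and when only mice with Y-linked counts were compared. Their log2 fold changes there were -0.25 and -0.26 for Car2 (-0.26 as reported), -0.32 and -0.32 for Car4 (-0.25) and 0.37 and 0.35 for Car5b (0.49), and the calls over all genes fell from 1761 to 542 and 334.

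The promoters of Car9, Car4 and Car5b are shown because these 3 genes moved in opposite directions and because Car9 has a known response to hypoxia. They come from a promoter table made from RefSeq on GRCm38.p6, in which windows from 250 bases before to 50 bases after a gene's start were matched for 7 of the 10 members, without Car2, Car3 and Car8. Capitals mark the core of the hypoxia response element, ACGTG or CACGT on the other strand.
Car9 (chr4:43506776-43507075, + strand): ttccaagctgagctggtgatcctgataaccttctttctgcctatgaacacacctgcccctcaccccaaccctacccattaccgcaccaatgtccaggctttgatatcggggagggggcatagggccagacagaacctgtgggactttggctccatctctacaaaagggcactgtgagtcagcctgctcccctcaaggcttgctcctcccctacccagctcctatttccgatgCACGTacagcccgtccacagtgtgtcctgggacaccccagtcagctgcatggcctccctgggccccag
Car4 (chr11:84957504-84957803, + strand): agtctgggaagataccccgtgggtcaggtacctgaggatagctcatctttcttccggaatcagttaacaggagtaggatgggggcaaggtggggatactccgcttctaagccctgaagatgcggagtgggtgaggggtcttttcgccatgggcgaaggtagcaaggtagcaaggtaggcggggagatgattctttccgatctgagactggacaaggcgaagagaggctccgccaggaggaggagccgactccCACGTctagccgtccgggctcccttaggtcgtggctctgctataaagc
Car5b (chrX:164027961-164028260, - strand): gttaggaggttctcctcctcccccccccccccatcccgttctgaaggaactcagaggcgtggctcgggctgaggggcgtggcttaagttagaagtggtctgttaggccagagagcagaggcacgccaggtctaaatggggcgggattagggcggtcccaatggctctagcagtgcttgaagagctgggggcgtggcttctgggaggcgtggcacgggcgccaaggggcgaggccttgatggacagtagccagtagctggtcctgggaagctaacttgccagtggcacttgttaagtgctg
In Car9 the core lay on the minus strand with its first base 18 bases before the start, and in Car4, also on the minus strand, 2 bases after it. The Car5b window held none. The core was found in 3 of the 11 windows of members, 1 each of Car9, Car4 and Car10, and in 19.6% of all 32851 promoter windows. A run of letters bound by TEAD factors, the DNA-binding partners of YAP1, is GGAATG, which reads as CATTCC on the opposite strand. It was in none of the 3 windows printed and in 1 of the 11 member windows, a Car10 start, against 14.7% of all windows. A match is a run of letters and not a measured binding site, and no match says only that the letters are not in these 300 bases.

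Car9 (ENSMUSG00000028463, chromosome 4, 43506966 to 43513729, plus strand) encodes a membrane enzyme whose active site faces outwards. In controls it was at 0.613, 0.509, 0.333, 0.252 and 0.567 CPM, which is 6 to 15 counts a library. In nlsYAP5SA it was at 8.14, 5.70, 4.68, 5.83 and 6.93 CPM, or 108 to 180 counts. In C57BL/6 it was at 0.583, 0.911 and 0.283 CPM. Every nlsYAP5SA hemisphere lay above every hemisphere of the other groups. The log2 fold change against controls was 3.76 (SE 0.227, edgeR adjusted p = 1.02e-06), the 12th smallest p among all genes tested, and against C57BL/6 it was 3.40 (SE 0.320, adjusted p = 0.000388). Over the alternatives it ran from 3.51, in the mice with Y-linked counts only (edgeR adjusted p = 0.000372), to 3.90. The antisense gene Gm12454 overlaps 214 exon bases of Car9 on the other strand and was at a mean of 0.0405 CPM in controls and 0.247 CPM in nlsYAP5SA. Whether counting used strand is not given in the sources used here, so that reads of this overlap cannot be told apart.

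**Figure D1:**
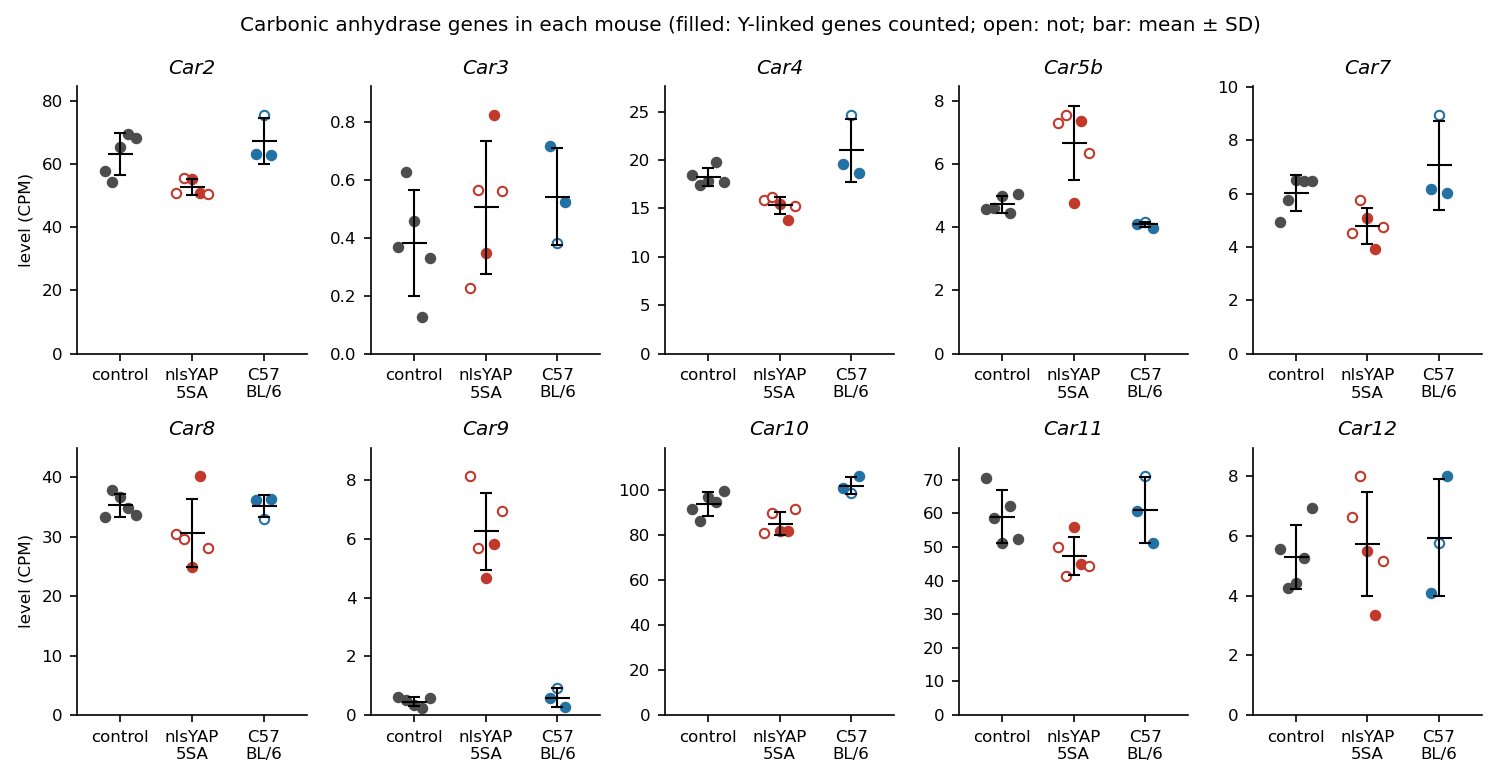
Level of each carbonic anhydrase gene (CPM, axis from 0) in the 5 control, 5 nlsYAP5SA and 3 C57BL/6 mice, 1 point a mouse, with bars for the mean and SD; open points are the 4 mice without counts of Y-linked genes. Car9 stands at 4.68 to 8.14 CPM in nlsYAP5SA and at most at 0.911 CPM elsewhere, while the groups of most other members overlap.

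Car5b (ENSMUSG00000031373, X chromosome, 163976822 to 164027997, minus strand) encodes a mitochondrial carbonic anhydrase. It was at 4.58, 4.62, 5.002, 4.45 and 5.05 CPM in controls, at 7.32, 7.58, 4.77, 7.39 and 6.37 CPM in nlsYAP5SA and at 4.12, 4.17 and 3.997 CPM in C57BL/6. Of the nlsYAP5SA mice 4 lay above all controls and replicate 3 lay inside the control range. The log2 fold change was 0.49 (SE 0.124, edgeR adjusted p = 0.0224) against controls and 0.69 (SE 0.162, adjusted p = 0.0342) against C57BL/6. The gene is X-linked, and the nlsYAP5SA mice with Y-linked counts were replicate 3, at 4.77 CPM, and replicate 4, at 7.39 CPM. Among C57BL/6 mice, replicate 2, without Y-linked counts, was at 4.17 CPM, beside 4.12 and 3.997 CPM in replicates 1 and 3. With the Y-linked level as a covariate the log2 fold change was 0.37 (edgeR adjusted p = 0.331), and among mice with Y-linked counts only it was 0.35 (adjusted p = 0.530). The part of sex in the Car5b result was not tested beyond these fits. The call was also lost without control replicate 2 or 4 or nlsYAP5SA replicate 1 or 2, with adjusted p-values of 0.0524 to 0.0638 in edgeR.

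Car2 (ENSMUSG00000027562, chromosome 3, 14886273 to 14900770, plus strand), the abundant cytosolic enzyme of oligodendrocytes and choroid plexus, was at 57.7, 54.6, 65.5, 69.7 and 68.5 CPM in controls. It was at 51.1, 55.7, 55.3, 50.9 and 50.6 CPM in nlsYAP5SA and at 63.2, 75.8 and 63.1 CPM in C57BL/6. The nlsYAP5SA values were below all C57BL/6 values but met the controls, whose replicate 2 lay within them. The log2 fold change was -0.26 (SE 0.070, edgeR adjusted p = 0.0303) against controls and -0.37 (SE 0.080, adjusted p = 0.0255) against C57BL/6. The first of these calls lay near the threshold, since leaving out control replicate 3, 4 or 5 or nlsYAP5SA replicate 1, 2, 4 or 5 gave edgeR adjusted p-values of 0.0502 to 0.0922, while the log2 fold change stayed between -0.31 and -0.22 whichever mouse was left out. With the Y-linked level as a covariate it was -0.25 (adjusted p = 0.271), and in mice with Y-linked counts only -0.26 (adjusted p = 0.426).

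The 10 oligodendrocyte markers, set beside Car2, had overlapping ranges between nlsYAP5SA and controls. Their summed level was 2161 to 3616 CPM in controls, 1389 to 2976 CPM in nlsYAP5SA and 3096 to 4809 CPM in C57BL/6, with none of the 10 at 0. Against controls 1 of 10, Ermn, was called lower (log2 fold change -0.88, edgeR adjusted p = 0.0396), beside 3.44% of all genes. The median over the list was -0.54 beside -0.01 over all genes. Against C57BL/6, 4 of 10 were called lower, beside 2.22% of all genes, with a median of -0.92. The log2 ratio of Car2 to these markers was -5.54 ± 0.208 (SD, n = 5) in controls and -5.30 ± 0.366 (SD, n = 5) in nlsYAP5SA, and the difference of 0.24 did not pass an exact two-sided permutation test over 252 divisions of the mice (p = 0.254, 0.508 adjusted over 2 ratios). The part of the markers in the Car2 result was not tested further. Of 6 precursor markers, Bmp4 was higher (0.98) and Olig1 (-0.29) and Gpr17 (-0.38) were lower than in controls on the log2 scale. Of all genes, 7.36% were called higher and 3.44% lower in that comparison.

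Car4 (ENSMUSG00000000805, chromosome 11, 84957786 to 84966044, plus strand), which is anchored to the outer membrane of brain capillaries, was at 18.4, 17.4, 17.8, 19.8 and 17.7 CPM in controls. It was at 15.8, 16.2, 15.5, 13.8 and 15.2 CPM in nlsYAP5SA and at 19.6, 24.7 and 18.7 CPM in C57BL/6. All nlsYAP5SA values lay below all values of both other groups. With Car9, Car4 was 1 of 2 members whose CPM did not overlap between nlsYAP5SA and controls, which held for 10.1% of all genes tested. The log2 fold change was -0.25 (SE 0.067, edgeR adjusted p = 0.0291) against controls and -0.47 (SE 0.105, adjusted p = 0.0290) against C57BL/6. The call against controls was lost without control replicate 4 or nlsYAP5SA replicate 1 or 5 (edgeR adjusted p = 0.0512 to 0.0863), and the fold change was -0.32 in mice with Y-linked counts only (adjusted p = 0.194).

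Among 8 endothelial markers, 3 were called lower in nlsYAP5SA, beside 3.44% of all genes, namely Cldn5 (log2 fold change -0.44), Slco1c1 (-0.50) and Cdh5 (-0.45). None was called higher, with Ly6c1 at 0.48 (edgeR adjusted p = 0.113) and Abcb1a at 0.24 (adjusted p = 0.393), and the median of the list was -0.32 beside -0.01 over all genes. Their summed level was 264 to 325 CPM in controls, 223 to 269 CPM in nlsYAP5SA and 284 to 307 CPM in C57BL/6, with none at 0. The log2 ratio of Car4 to these markers was -4.02 ± 0.124 (SD, n = 5) in controls and -4.01 ± 0.140 (SD, n = 5) in nlsYAP5SA, a difference of 0.0091 (exact two-sided permutation p = 0.897). A ratio without a detected difference does not tell why Car4 was lower, and the part of the markers in the Car4 result was not tested further.

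**Figure D2:**
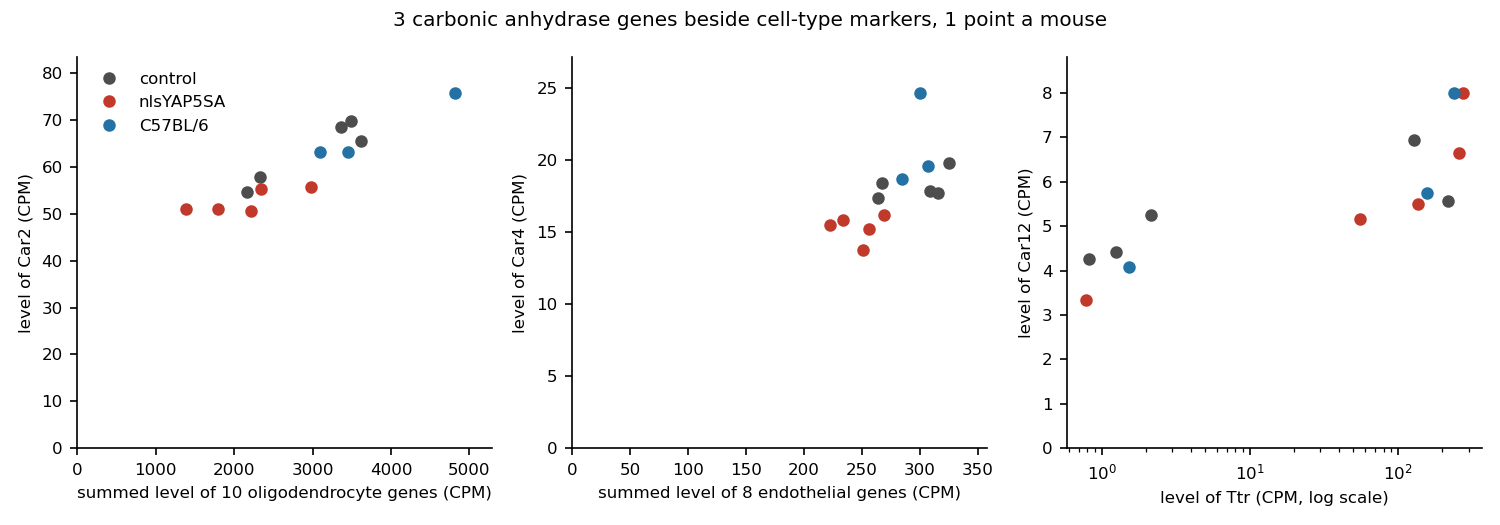
Levels in CPM of Car2 against the summed level of 10 oligodendrocyte markers, Car4 against that of 8 endothelial markers and Car12 against Ttr (log axis), 1 point a mouse, coloured by group. The nlsYAP5SA mice lie at 50.6 to 55.7 CPM of Car2, where a control stands among them and both marker sums overlap those of controls, and at 13.8 to 16.2 CPM of Car4, below all other mice, and Car12 is at most 5.25 CPM in the 5 mice with Ttr up to 2.14 CPM.

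The catalytically inactive members and the neuronal enzyme Car7 had fold changes below 0 that did not pass the test in this comparison. Car11 (chromosome 7, 45699843 to 45704682), a secreted relative that binds neurexins, was at 70.6, 58.6, 51.1, 62.3 and 52.3 CPM in controls and at 50.1, 41.3, 55.8, 45.0 and 44.3 CPM in nlsYAP5SA. Of the nlsYAP5SA mice 4 lay below all controls, and the log2 fold change was -0.32 (SE 0.101, edgeR adjusted p = 0.0643). It passed in 5 of 22 alternatives, DESeq2's Wald test among them (adjusted p = 0.0234). Car10 (chromosome 11, 93098028 to 93601749), the other neurexin ligand, was at 91.3, 85.96, 96.6, 94.7 and 99.5 CPM in controls and at 80.9, 89.5, 81.5, 81.5 and 91.6 CPM in nlsYAP5SA. Its ranges overlapped, with a log2 fold change of -0.14 (SE 0.056, edgeR adjusted p = 0.141), but against C57BL/6, at 101, 98.5 and 106 CPM, there was no overlap and the log2 fold change of -0.27 passed (SE 0.069, adjusted p = 0.0434). The share of all genes without overlap with C57BL/6 was not counted.

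Car7 (chromosome 8, 104534689 to 104550343) was at 4.95, 5.75, 6.50, 6.47 and 6.47 CPM in controls, at 4.52, 5.74, 5.07, 3.91 and 4.73 CPM in nlsYAP5SA and at 6.19, 8.96 and 6.02 CPM in C57BL/6. The nlsYAP5SA range met that of the controls and lay below that of C57BL/6, with log2 fold changes of -0.33 (SE 0.118, edgeR adjusted p = 0.0995) and -0.57 (SE 0.171, adjusted p = 0.0841). Car8 (chromosome 4, 8143362 to 8239041), a relative that binds the IP3 receptor and is known from cerebellar Purkinje cells, was at 33.4, 37.8, 36.6, 34.9 and 33.7 CPM in controls. In nlsYAP5SA it was at 30.5, 29.6, 24.9, 40.2 and 28.2 CPM, so that replicate 4 was above and the other 4 mice were below every control. Its log2 fold change was -0.21 (SE 0.105, edgeR adjusted p = 0.255), and without nlsYAP5SA replicate 4 it was -0.32 (adjusted p = 0.0108). Of 6 neurexin and IP3 receptor genes none was called as reported and 2 were with the ordinary loess offset, and the 6 cerebellar markers, of which 4 were tested and none called, summed to 20.3 to 25.4 CPM in controls and 21.5 to 25.3 CPM in nlsYAP5SA.

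Car12 (chromosome 9, 66713686 to 66766845), the other membrane enzyme facing outwards, was at 5.56, 4.27, 4.42, 5.25 and 6.94 CPM in controls, at 6.64, 8.004, 5.50, 3.35 and 5.15 CPM in nlsYAP5SA and at 4.08, 5.75 and 7.99 CPM in C57BL/6. The 3 groups overlapped throughout, with a log2 fold change of 0.12 against controls (95% interval -0.33 to 0.56, edgeR adjusted p = 0.781), and with Ttr as a covariate it was -0.15 (adjusted p = 0.562). Beside Ttr, Car12 was at 3.35 to 5.25 CPM in the 5 mice with low Ttr and at 5.15 to 8.004 CPM in the other 8. Car14, a membrane relative outside the 10, was at 1.84 to 2.83 CPM and at 2.70 to 5.70 CPM in the same mice. Car3 (chromosome 3, 14863512 to 14872523), the muscle and fat enzyme that lies beside Car2, was near the floor of the data at 0.126 to 0.626 CPM in controls, 0.226 to 0.826 CPM in nlsYAP5SA and 0.383 to 0.717 CPM in C57BL/6, or 3 to 19 counts a library. Its log2 fold change of 0.39 had an interval from -0.50 to 1.27, so that a difference was not detectable at this depth.

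Between C57BL/6 and control mice no member was called in the fit reported or in any alternative in which it could be fitted. In the fit reported 0.169% of 16546 genes were called (28 genes, and 625 at an unadjusted p of at most 0.05, none of them a member). All 10 adjusted p-values were 0.9996 in edgeR. The log2 fold changes ran from -0.21 for Car5b, whose C57BL/6 values lay below all controls, to 0.49 for Car3. For Car9 the interval was wide, from -0.586 to 1.302. Between nlsYAP5SA and C57BL/6 the test called 5 of 10 members, Car5b and Car9 higher and Car2, Car4 and Car10 lower, where 6.38% of all genes were called, 4.16% higher and 2.22% lower. Both comparisons of nlsYAP5SA use the same 5 nlsYAP5SA mice. The share of all genes without overlap was counted for nlsYAP5SA against controls only. No such share therefore stands beside any member described as not overlapping with C57BL/6. Leaving out single mice from the comparison with C57BL/6 left 1 to 5 members called, Car9 in 8 of 8, Car2 in 3, Car4 in 2, Car5b in 1 and Car10 in none. Car7 and Car11, not called as reported, were each called in 1 of these fits. Only Car9 was called among the mice with Y-linked counts, 2 in each group.

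**Figure D3:**
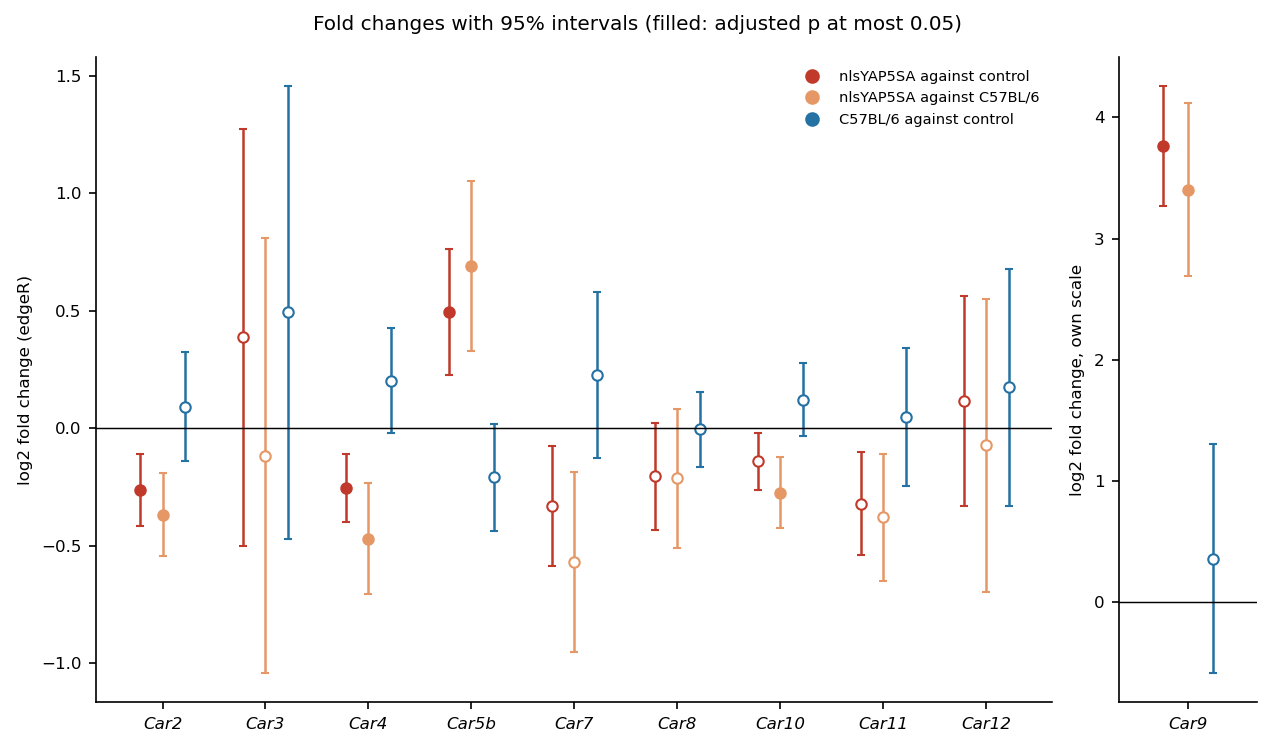
Log2 fold change (edgeR, dots) with 95% interval (bars) of each member in the 3 comparisons, Car9 on its own axis, with filled dots for an adjusted p of at most 0.05. Car9 stands at 3.76 and 3.40 in the comparisons of nlsYAP5SA, the other called members lie between -0.47 and 0.69, and no dot of C57BL/6 against control is filled.

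**Figure D4:**
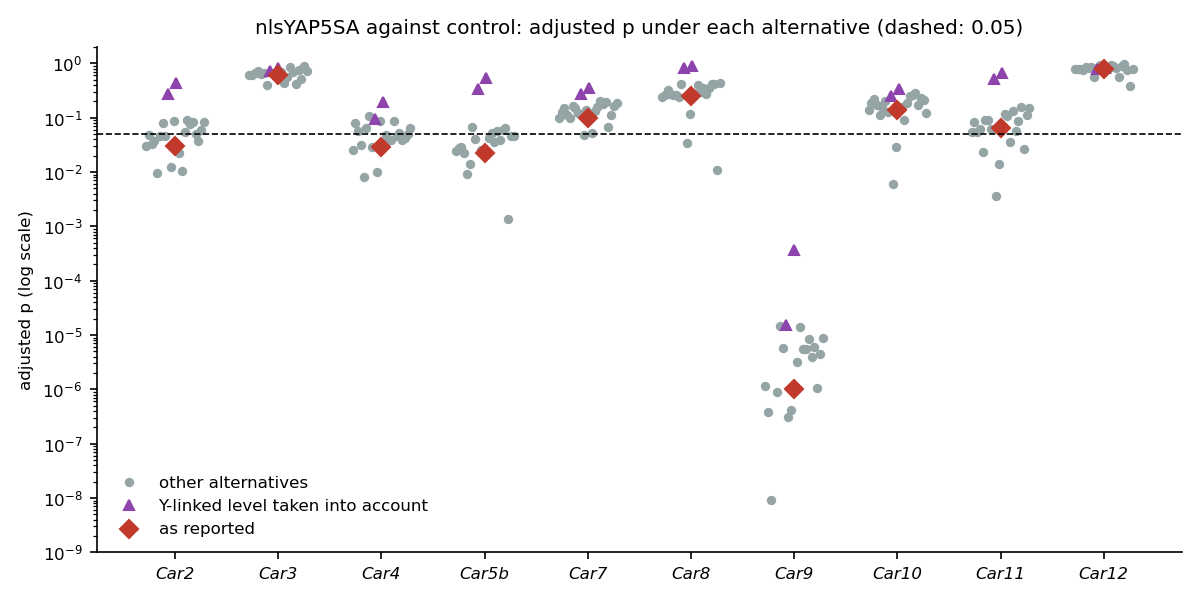
Adjusted p (log axis) of each member for nlsYAP5SA against control as reported (diamonds) and under the alternatives (dots, and triangles where the Y-linked level was a covariate or limited the mice), with a dashed line at 0.05. Car9 stays below 0.05 throughout, with DESeq2's value of 2.02e-41 under the axis, while Car2, Car4 and Car5b cross the line and their triangles lie above it.

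Per kilobase of exon, which allows genes to be compared, the levels of the members covered more than 2 orders of magnitude. In controls Car11 was highest at 30.6 ± 4.13 CPM per kb (SD, n = 5), followed by Car2 at 26.1 ± 2.77, Car10 at 14.7 ± 0.818, Car4 at 9.27 ± 0.480 and Car8 at 9.16 ± 0.490 CPM per kb. Car7 at 1.66, Car5b at 0.746, Car12 at 0.696, Car9 at 0.197 and Car3 at 0.133 CPM per kb followed. The neighbours Car11 and Car2, Car4 and Car8, Car5b and Car12, and Car9 and Car3 overlapped between mice, and the other neighbours did not. In nlsYAP5SA Car9 stood 6th instead of 9th, at 2.71 ± 0.573 CPM per kb, above Car7. These ranges did not overlap per kilobase of exon, but with the length of the longest transcript the lowest Car9, at 2.31 CPM per kb, lay below the highest Car7, at 2.96. It made up 3.34% ± 0.712 of the summed level of the 10 genes there and 0.213% ± 0.0733 in controls. The sum was 88.4 to 98.5 CPM per kb in controls, 79.6 to 84.0 in nlsYAP5SA and 91.9 to 109 in C57BL/6. With the longest transcript in place of all exons, Car11, Car2, Car10, Car4 and Car8 kept the first 5 places in controls, while Car12 and Car5b, and Car3 and Car9, changed places.

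**Figure D5:**
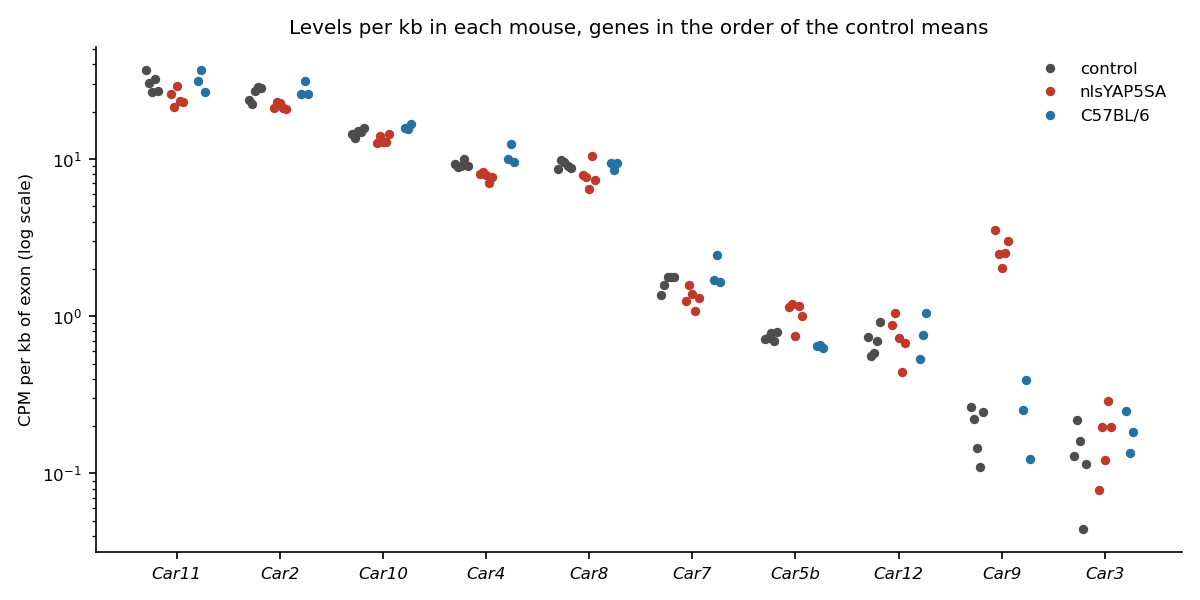
CPM per kb of exon (log axis) of each member in each mouse, coloured by group and ordered by the control mean. In controls the means run from 30.6 for Car11 to 0.133 for Car3, and the nlsYAP5SA mice stand apart from the others at Car9.

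Mice of a group differed least in Car4 and Car8 among controls (SD 5.17% and 5.36% of the mean) and most in Car3 (47.9%) and Car9 (34.1%), the members with the fewest counts. After subtraction of group means, over 13 mice, 6 of 45 pairs of members had a Pearson r above 0.5 and 7 had one below -0.5. The highest were Car2 with Car7 (r = 0.80), Car4 with Car7 (0.77) and Car2 with Car4 (0.66), and the lowest was Car10 with Car11 (-0.64). Of 16943 genes, the 3 most like Car2 in this sense were Sun1 (r = 0.94), Ogfrl1 (0.93) and Vip (0.91), and the 3 most like Car4 were Cyp46a1 (0.94), Sertad1 (0.93) and Slc9a3r1 (0.93). For Car7 they were Cebpg (0.97), Gm13446 (0.94) and Pvalb (0.93), for Car5b Fgr (0.91), Trim30a (0.91) and Pkhd1 (0.91), and for Car12 Slc4a5 (0.97), Slc2a12 (0.96) and Tmem72 (0.94). Among the inactive members, Car8 was most like S1pr3 (0.95), Gsap (0.93) and Pcdh12 (0.92), Car10 most like Hrasls (0.94), Erich3 (0.92) and Cnnm2 (0.90), and Car11 most like Vdac2 (0.99), Gpr162 (0.97) and Dtx3 (0.97). The points share libraries, so these values describe the mice and carry no test.

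Beyond the 10 members, 6 further carbonic anhydrase genes were in the table and 3 had enough counts to be tested. The counts of this paragraph stand beside 7.36% of all genes called higher and 3.44% called lower against controls. Car13, a cytosolic enzyme of the same chromosome 3 cluster as Car2 and Car3, was at 1.31 to 1.76 CPM in controls and at 1.82 to 3.25 CPM in nlsYAP5SA (log2 fold change 0.66, SE 0.171, edgeR adjusted p = 0.0254). Car15, a membrane-anchored enzyme, was at 2.503 to 3.39 CPM in controls and at 1.22 to 2.08 CPM in nlsYAP5SA (-0.75, SE 0.165, adjusted p = 0.0110). Neither overlapped between these groups, and both calls were lost with the Y-linked level as a covariate and in mice with Y-linked counts only. Against C57BL/6 neither was called (Car13 0.41, edgeR adjusted p = 0.340, and Car15 -0.72, adjusted p = 0.0567). Car13 overlapped there, with C57BL/6 at 1.48 to 2.30 CPM. Of the 3 genes, 1 was called with the replicate block, with Ttr as a covariate and without control replicate 1 or 5 or nlsYAP5SA replicate 1 or 2. Of 8 bicarbonate transporters tested, Slc4a3, which exchanges chloride for bicarbonate, was called lower (-0.18, edgeR adjusted p = 0.0273) and none was called higher. The median of the list was 0.11, with Slc4a5 at 1.40 (edgeR adjusted p = 0.172). No bicarbonate transporter was called with library size alone, the replicate block, the robust loess offset, Ttr or the Y-linked level as a covariate, in mice with Y-linked counts only, or without control replicate 4 or 5 or nlsYAP5SA replicate 1, 2 or 5. Of 9 genes for proton and lactate transport, Hvcn1, a proton channel of immune cells (0.83, adjusted p = 0.00446), and Slc16a3, the lactate exporter MCT4 (0.55, adjusted p = 0.0233), were higher. Neither was called with the Y-linked level as a covariate or in mice with Y-linked counts only, and 1 gene of this list was called with the replicate block, in the single fit of all mice and without control replicate 4 or 5 or nlsYAP5SA replicate 5.

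Car9 is set here beside other hypoxia-response genes. The list also holds the pathway genes Hif1a, Epas1, Arnt and Vhl, with log2 fold changes of 0.09, 0.05, 0.05 and -0.14, none of them called. Of 25 tested, 4 were higher, or 16% beside 7.36% of all genes, and 1 was lower, with a median log2 fold change of 0.02 beside -0.01 over all genes. The 4 were Hk2 (0.62, edgeR adjusted p = 0.00776), Slc2a1 (0.67, adjusted p = 0.0109), Kdm3a (0.37, adjusted p = 0.0114) and Ndrg1 (0.40, adjusted p = 0.0345), that is, a hexokinase, the glucose transporter GLUT1, a histone demethylase and a stress-response gene, and Higd1a was lower (-0.19, adjusted p = 0.0459). Among those that did not pass, Adm was at 0.72 (edgeR adjusted p = 0.0551), Bnip3l at 0.13, Egln3 at 0.13, Vegfa at -0.02, Ldha at -0.11 and Pgk1 at -0.17. The count of 5 called genes was 10 with the ordinary loess offset, 3 with library size alone, with Ttr as a covariate or without control replicate 4 or 5 or nlsYAP5SA replicate 1 or 5, and 0 with the Y-linked level as a covariate or in mice with Y-linked counts only.

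Other cells the hemisphere holds were followed by their markers in nlsYAP5SA against controls. Over all genes tested in this comparison, 7.36% were called higher and 3.44% lower. Of 6 microglial markers 5 were higher (C1qa 1.18, Cx3cr1 0.68, Csf1r 0.76 and Aif1 0.84 on the log2 scale), of 7 astrocyte markers 3 were higher (Gfap 2.06, Gja1 0.36, Slc1a3 0.31), and Folr1 was the only one of 8 choroid plexus markers (2.203) and Foxj1 the only one of 6 ependymal markers (0.78) to pass, both higher. Neurod6 (-0.98) alone of 6 excitatory neuron markers and Pvalb (-0.60) alone of 6 interneuron markers were lower. Only the nlsYAP5SA mice carry Cre inserted in Neurod6, so a loss of neurons and the altered allele cannot be told apart for this gene. Of 3 skeletal muscle markers tested, Myh1 was higher (1.09). None of 5 erythroid markers was called, and none of 5 adipocyte markers was high enough to be tested, with Cidec and Cfd at 0 in every mouse. A single call in lists as short as these is not read as a result about the cells. The part of these cells in the members' results was not tested.

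Across the whole table, the choice of scaling changed the balance of the calls. An offset for GC content and length by ordinary loess gave 3193 calls, 1215 of them higher, against 1761 with 1200 higher as reported, and called 8 of the 10 members, with Car7, Car8, Car10 and Car11 added on the lower side. The robust loess gave 2235 calls, 1412 of them higher, and called 4 members that were not the 4 reported, since Car2 (edgeR adjusted p = 0.0876) and Car4 (0.0886) were lost and Car10 (0.0284) and Car11 (0.0143) were added on the lower side. The 4 members called kept their directions in all alternatives that could be fitted.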

How the data were processed

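The deposited table holds estimated counts per gene, which the authors made with RSEM 1.3.0 over STAR after trimming with cutadapt 1.5 (submitters' processing notes: STAR 2.2.2a and SAMtools 1.8), against GRCm38 with Ensembl transcripts. RSEM divides reads that match several genes, so 12.4% to 13.3% of the values were not whole numbers, and they were rounded before testing. Whether counting used strand is not given in the sources used here. Symbols matched 48349 of 48795 gene IDs, and the remainder held 0.0649% of counts. Positions and lengths came from GENCODE M21 (GRCm38), a later release than the authors used.

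The 13 libraries of 5 control, 5 nlsYAP5SA and 3 C57BL/6 mice were compared by group in edgeR 4.0.16 (R 4.3.3) with TMM scaling, filterByExpr (minimum count 10), the quasi-likelihood test and Benjamini-Hochberg adjustment over all genes tested, called at an adjusted p of at most 0.05. CPM used TMM library sizes over all 13 libraries, and log2 values a pseudocount of 0.5 CPM. The fit was tested on simulated data with 200 changed genes. No 2 mice of a group agreed within sampling noise, the lowest chi-square per degree of freedom being 6.86, and the mice are separate animals.

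Alternatives were other size factors and filters, DESeq2 1.42.0, a single fit of all libraries, a replicate block, covariates for Ttr and for Y-linked genes, and each mouse left out. The GC and length offsets, and the fit limited to mice with over 10 CPM of Y-linked genes, were chosen after the data had been seen. Members and lists were chosen with earlier results of these data known, and the same holds for the rule on names: all members, of each list up to 4 called genes by smallest p, and the genes most like a member of at least 5 CPM. Genes named without a call (such as Adm, Vegfa, Slc4a5, Ly6c1, Cidec and Car14) fall outside this rule and were chosen after their values were seen. Precision is limited by the number of mice and, for Car3 and Car9, by few counts.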

Additional observations from a re-analysis of the deposited data

How the results depend on the processing

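The replicate numbers did not mark pairs of mice, with correlations of same-numbered control and nlsYAP5SA mice of 0.31, -0.16, -0.31, -0.0889 and 0.11. Against controls, 4 members were called as reported, 1 with the replicate block, 1 with the Y-linked level as a covariate, 1 in mice with Y-linked counts only, 8 with the ordinary loess offset, 4 with the robust loess (Car5b, Car9, Car10 and Car11, without Car2 and Car4), and 1 to 5 when a mouse was left out. Against C57BL/6, 5 were called as reported, 4 with the Y-linked level (Car2, Car4, Car7 and Car9), 7 with the ordinary loess (Car7 and Car11 added), 1 with the replicate block, 1 in mice with Y-linked counts only, and 1 to 5 when a mouse was left out. Wherever 1 member was called under the block, the Y-linked level or in mice with Y-linked counts only, it was Car9 (block: 3.77 on the log2 scale against controls). Between C57BL/6 and control no member was called under any alternative in which it could be fitted, and there the mice with Y-linked counts only are the same mice as those without C57BL/6 replicate 2, a single fit. No member called in a comparison turned in sign in that comparison. Against controls, Car12 (0.12) went to -0.15 with Ttr as a covariate, to -0.24 with the Y-linked level, to -0.26 in mice with Y-linked counts only, and leaving out mice gave -0.0312 to 0.26. For C57BL/6 against control, Ttr as a covariate gave 0.0257 for Car8 and -0.0120 for Car12, the Y-linked level gave 0.0359 for Car8, -0.0753 for Car9 and -0.0778 for Car11, the robust loess gave 0.0027 for Car8, and mice with Y-linked counts only gave -0.00094 for Car2, 0.0381 for Car8, -0.0822 for Car9 and -0.0767 for Car11. Leaving out mice there gave -0.00094 to 0.13 for Car2, -0.0447 to 0.0381 for Car8, -0.0822 to 0.69 for Car9, -0.0767 to 0.14 for Car11 and -0.12 to 0.38 for Car12. For nlsYAP5SA against C57BL/6, the replicate block gave 0.19 for Car12 and the Y-linked level 0.0128 for Car3, and leaving out mice gave -0.36 to 0.13 for Car3 and -0.28 to 0.21 for Car12. Over all genes, calls against controls were 1761 as reported, 542 with the Y-linked level, 334 in mice with Y-linked counts only and 3193 with the ordinary loess, and calls of nlsYAP5SA against C57BL/6 were 1061 as reported, 47 with the block and 47 in mice with Y-linked counts only, where fewer mice also entered the fit. The cause of the other changes was not tested. The filter of 10 counts in every library removed Car3 and Car9, which then have no value. Depth limits Car3 and the control level of Car9.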
